A study of Mus musculus with 31 samples.

Results

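The genes described here encode 9 receptors for attractants that steer white blood cells along chemical gradients. The chemokine receptors are Ccr1, Ccr2, Cx3cr1, Cxcr2 and Cxcr4, beside the chemokine-like receptor Ccrl2. Fpr1 and Fpr2 are formyl peptide receptors, and S1pr1 is a sphingosine-1-phosphate receptor. The 9 genes were chosen by symbol from the deposited gene count table, 9 of its 24411 entries, and all 9 passed the filter on low counts. RNA-seq was done on 9 libraries of monocytes from C57BL/6J mice, 3 per group. They came from blood of mice without a tumor (healthy blood), from blood of mice carrying a subcutaneous Lewis lung carcinoma (LLC blood; LLC is a transplantable mouse lung tumor line), and from the carcinomas themselves (LLC tumor). All cells were sorted as CD11b+, Ly6G-, Ly6C-high and MHC-II-, and no other allele or agent is named for any group. The labels used here do not give the age or sex of the mice, the stage of the tumors, whether animals were pooled, or whether blood and tumor libraries of one number came from one mouse, so the p-values below measure the spread between libraries that may in part be technical.

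Ly6C-high monocytes leave the bone marrow through Ccr2, whose ligands include Ccl2 and Ccl7, and circulate briefly before entering inflamed or malignant tissue. As they mature in tissue or turn into Ly6C-low patrolling cells, the receptors on their surface change: Cx3cr1, the receptor of the membrane-bound chemokine Cx3cl1, marks the patrolling cells, Cxcr4 holds cells where its ligand Cxcl12 is made, and S1pr1 guides lymphocytes in particular out of tissues into blood. Ccr1 responds to Ccl3, Ccl5 and related chemokines. Fpr1 and Fpr2 sense formylated peptides from bacteria and damaged mitochondria, and Cxcr2 is the neutrophil receptor of Cxcl1 and Cxcl2. Ccrl2 binds the attractant chemerin and presents it to other receptors without moving the cell itself.

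The stretches of 140 bases before the start sites are shown for 5 of the 6 receptor genes that rose from LLC blood to tumor and for the 2 that fell, so that genes that moved together can be read side by side. They come from RefSeq (GRCm38.p6), are written 5′ to 3′ on the strand of the gene and end at the base before the start site. Capitals mark a match, on either strand, to ACGTG (core of the hypoxia response element), CACCC (bound by KLF factors), TGANTCA (AP-1), GAGGAA (PU.1 type) or TTGCNNAA (C/EBP type).
Ccr1: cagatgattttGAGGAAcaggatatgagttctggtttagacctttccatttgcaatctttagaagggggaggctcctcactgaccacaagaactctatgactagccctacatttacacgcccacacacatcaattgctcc
Ccrl2: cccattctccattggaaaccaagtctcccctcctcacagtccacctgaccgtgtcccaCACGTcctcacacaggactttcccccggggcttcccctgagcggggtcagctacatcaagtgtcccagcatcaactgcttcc
Cxcr4: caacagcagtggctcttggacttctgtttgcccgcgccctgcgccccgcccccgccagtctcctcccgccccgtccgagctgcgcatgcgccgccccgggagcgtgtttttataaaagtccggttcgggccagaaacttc
Fpr1: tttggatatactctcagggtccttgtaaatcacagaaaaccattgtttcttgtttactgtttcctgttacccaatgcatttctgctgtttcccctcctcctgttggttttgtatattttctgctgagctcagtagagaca
Fpr2: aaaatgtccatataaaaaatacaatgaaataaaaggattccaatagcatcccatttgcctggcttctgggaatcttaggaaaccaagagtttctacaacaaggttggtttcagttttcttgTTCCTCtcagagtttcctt
Ccr2: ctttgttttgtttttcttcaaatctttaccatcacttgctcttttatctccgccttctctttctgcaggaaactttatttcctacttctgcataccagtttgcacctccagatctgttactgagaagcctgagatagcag
Cx3cr1: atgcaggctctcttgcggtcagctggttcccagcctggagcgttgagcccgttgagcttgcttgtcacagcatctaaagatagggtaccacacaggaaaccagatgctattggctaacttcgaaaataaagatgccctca
They lie at chr9:123968693-123968832 (Ccr1, minus strand), chr9:111057519-111057658 (Ccrl2, minus), chr1:128592300-128592439 (Cxcr4, minus), chr17:17883940-17884079 (Fpr1, minus), chr17:17887684-17887823 (Fpr2, plus), chr9:124102043-124102182 (Ccr2, plus) and chr9:120068297-120068436 (Cx3cr1, minus). For Ccrl2, the most upstream of 3 start sites was used. The Ccr2 stretch lies inside the gene interval given for Ccr2 below, since the start site in the promoter table (position 124102183) is downstream of the start of that interval. S1pr1 was not in the promoter table.

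Windows from 250 bases before to 50 after the start site were searched for 8 of the 9 genes. The motif ACGTG was found in 1 of them (Ccrl2, beginning 82 bases before the start site, on the opposite strand), against 19.6% of 32851 RefSeq windows of the same length. GAGGAA was found in 3 (Ccr1, Fpr2 and Cxcr2), against 28.3%, and CACCC in 3 (Cx3cr1, Cxcr4 and Cxcr2), against 57.5%. TGANTCA and TTGCNNAA were found in 0 of the 8, against 7.81% and 10.8% of all windows. The motifs do not overlap each other here, and a match describes the letters only.

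Total counts ranged from 10457478 to 20706410 per library. Libraries of one group were correlated over genes, which do not count as replicates. Pearson's r was 0.991 to 0.993 for healthy blood, 0.985 to 0.997 for LLC blood and 0.967 to 0.993 for tumor. LLC tumor 1 was at 0.967 with LLC tumor 2 and 0.972 with LLC tumor 3, while LLC tumor 2 and 3 correlated at 0.993. The sorting marker Ly6c2 was at 1571 to 1728, 1099 to 1237 and 272 to 472 CPM (counts scaled to a common library total) in the healthy blood, LLC blood and LLC tumor groups, and Itgam (CD11b) at 893 to 949, 1337 to 1491 and 3193 to 3720 CPM. The MHC-II gene H2-Ab1, whose protein was gated out, was at 121 to 221, 50.2 to 83.7 and 42.2 to 93.9 CPM. Markers of other cells were not at 0. Summed over their lists, the 8 T cell markers were at 37.2 to 166, 3.87 to 5.83 and 6.74 to 12.1 CPM in the 3 groups, the 8 NK cell markers at 206 to 461, 36.7 to 53.5 and 6.91 to 16.1 CPM, and the 8 macrophage markers at 1715 to 2000, 1087 to 1189 and 2717 to 3815 CPM. The 8 fibroblast and endothelial markers were at 18.0 to 27.9, 15.0 to 417 and 922 to 3745 CPM. The 417 CPM belonged to LLC blood 1, with Col1a1 at 212 CPM. The 922 CPM belonged to LLC tumor 1, against 3345 and 3745 CPM in LLC tumor 2 and 3. B cell markers summed to 194 CPM in healthy blood 2 and to 17.7 and 25.6 CPM in the other healthy blood libraries.

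In tumor monocytes set against blood monocytes of tumor-bearing mice, 8 of the 9 receptor genes passed the test. Ccr1, Ccrl2, Cxcr4, Fpr1, Fpr2 and S1pr1 rose and Ccr2 and Cx3cr1 fell. The same test called 61.3% of the 12337 genes tested (29.6% higher, 31.7% lower). Calls were made at 0.05 on the p-value of edgeR's quasi-likelihood test after Benjamini-Hochberg adjustment over all genes, and log2 fold changes are given with their standard error (SE). The libraries of tumor and LLC blood did not overlap for 8 of the 9 receptor genes and for 68.3% of all genes, and 7 of the 9 were called with a change of at least 2-fold, as were 28.7% of all genes. The sums of macrophage markers and of fibroblast and endothelial markers given above were higher in tumor as well. Within these lists, Adgre1 was lower, at 310 to 340 CPM in LLC blood and 164 to 212 CPM in tumor. Col1a1 and Col1a2 overlapped between the groups, with LLC blood 1 highest. The Ly6C-low monocyte and neutrophil sums given below were lower. Mmp9 of the neutrophil list, however, was at 0.628 to 3.39 CPM in LLC blood and 33.9 to 88.4 CPM in tumor. Nr4a1 and Cd300e of the Ly6C-low list overlapped between LLC blood and tumor. The 8 dendritic cell markers summed to 76.2 to 106 CPM in LLC blood and 13.2 to 20.6 CPM in tumor. Dpp4, the largest part of that sum, was at 51.5 to 66.8 CPM and 6.95 to 12.3 CPM. Zbtb46, Xcr1, Clec9a and Ccr7 of that list overlapped between LLC blood and tumor. The 5 epithelial markers summed to 1.84 to 2.77 CPM and 63.1 to 101 CPM. Of these, Cdh1 was at 39.2 to 58.3 CPM and Krt18 at 3.97 to 34.8 CPM in tumor. Epcam and Krt19 did not exceed 0.259 CPM there. The part of these cells in the receptor values was not tested. The median log2 fold change was 1.79 over the 9 and -0.03 over all genes. In sorted bulk cells, a change in the share of one kind of cell and a change of RNA within each cell cannot be told apart.

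LLC blood against healthy blood sets circulating monocytes of mice with and without a tumor side by side. Of all genes, 23.6% were called there (14% higher, 9.61% lower). Of the 9 receptor genes, 3 passed the test, Ccr1 higher and Fpr2 and S1pr1 lower. Of the 9, 3 were called with at least a 2-fold change, as were 6.23% of all genes. The groups did not overlap for 4 of the 9 and for 51.3% of all genes. The median log2 fold change was -0.52 over the 9 and -0.01 over all genes. Between LLC tumor and healthy blood, 6 of the 9 were called, Ccr1, Ccrl2, Cxcr4 and Fpr1 higher and Ccr2 and Cx3cr1 lower, where 66.5% of all genes were called (33.5% higher, 33% lower). Of the 9, 5 were called with at least a 2-fold change (32.3% of all genes) and 5 did not overlap (70.6% of all genes). These 3 comparisons share libraries, so their values are set side by side here and not related to each other.

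**Figure D1:**
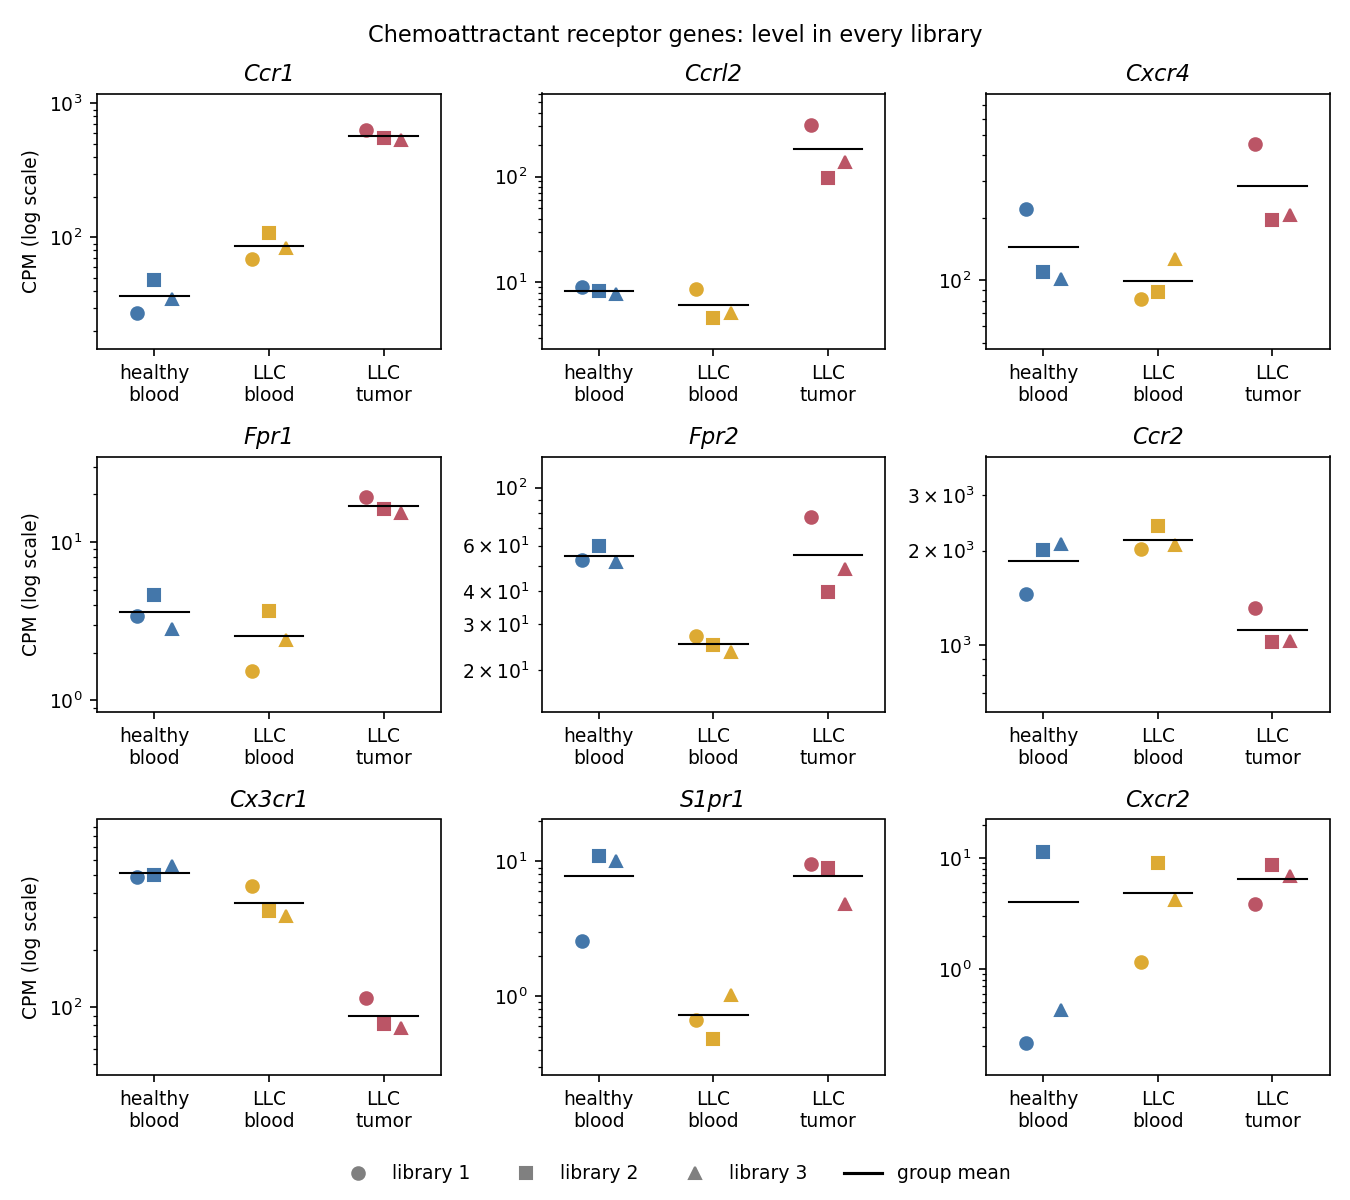
Level of each receptor gene in every library, in CPM on a log scale. Circles, squares and triangles are libraries 1, 2 and 3 of each group, and the line is the group mean. The labels do not say whether these numbers pair the groups. Ccr1 steps up from healthy blood (27.4 to 47.8 CPM) to LLC blood (69.3 to 108 CPM) to tumor (538 to 634 CPM), Cx3cr1 steps down, and Fpr2 and S1pr1 are lowest in LLC blood.

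Ccr1 (ENSMUSG00000025804, chr9:123962126-123968692), a receptor of Ccl3, Ccl5 and other inflammatory chemokines, was the one receptor gene of the 9 called higher in all 3 comparisons. It was at 27.4, 47.8 and 34.8 CPM in healthy blood, 69.3, 108 and 84.1 CPM in LLC blood and 634, 552 and 538 CPM in LLC tumor. No library of one group overlapped another group. It rose 2.33-fold in LLC blood (log2 fold change 1.22 ± 0.24 SE, adjusted p 0.00611) and 7.68-fold from LLC blood to tumor (2.94 ± 0.24 SE, adjusted p 8.00e-06). From healthy blood to tumor the log2 fold change was 4.16 ± 0.26 SE (adjusted p 1.21e-06).

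Ccr2 (ENSMUSG00000049103, chr9:124101918-124109140), the receptor that brings Ly6C-high monocytes out of the marrow and into inflamed tissue, was at 1455, 2007 and 2093 CPM in healthy blood and 2030, 2392 and 2083 CPM in LLC blood, where the groups overlapped and the test was not passed (0.20 ± 0.20 SE, adjusted p 0.520). In tumor it was at 1309, 1018 and 1031 CPM, below every blood library. Its fall from LLC blood to tumor was 1.66-fold (log2 fold change -0.73 ± 0.21 SE, adjusted p 0.0121). Against healthy blood the log2 fold change was -0.53 ± 0.21 SE with an adjusted p of 0.0448, and that call was lost without healthy blood 2 or 3, LLC blood 1 or 3 or LLC tumor 2 or 3 (-0.54 to -0.40 in these fits), with DESeq2 size factors (-0.48), with only the 2 groups compared (-0.54) and with a replicate block.

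The counts of Ccr2 were not whole numbers in any of the 9 libraries, so the authors' estimate divided some of its reads with other entries. How many reads were divided is not given in the sources used here, and the level of Ccr2 and both of its falls in tumor are uncertain to that extent.

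Cx3cr1 (ENSMUSG00000052336, chr9:120048683-120068296), the fractalkine receptor of patrolling monocytes, was at 487, 498 and 557 CPM in healthy blood, 437, 322 and 303 CPM in LLC blood and 112, 81.6 and 77.2 CPM in LLC tumor. The groups did not overlap, and the level was lowest in tumor. From LLC blood to tumor it fell 3.35-fold (log2 fold change -1.74 ± 0.23 SE, adjusted p 0.000132), and from healthy blood to tumor 4.96-fold (-2.31 ± 0.23 SE, adjusted p 2.20e-05). Between LLC blood and healthy blood the log2 fold change was -0.57 ± 0.22 SE with an adjusted p of 0.0920, which did not pass. It passed in 8 of 21 alternatives (-0.67 to -0.54), among them DESeq2 (adjusted p 0.0383), only the 2 groups compared (adjusted p 0.00963) and the fit without LLC tumor 1 (adjusted p 0.00653). Markers of Ly6C-low monocytes were summed (8 of 8 in the table, none at 0). The sum was at 3155 to 3175, 2981 to 3637 and 1063 to 1289 CPM in the 3 groups. Its largest part in blood, Itgal, was higher with a tumor (1622 to 1723 against 1318 to 1357 CPM). Treml4 (95.1 to 135.5 against 144 to 161 CPM) and Eno3 (29.5 to 49.1 against 54.2 to 64.5 CPM) were lower there without overlap. So was Pparg (5.60 to 7.44 against 9.52 to 10.8 CPM). Nr4a1, Ace, Spn and Cd300e overlapped between the blood groups. The part of Ly6C-low cells in the levels of Cx3cr1 was not tested.

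Ccrl2 (ENSMUSG00000043953, chr9:111054834-111057518), the chemerin-presenting receptor, had the highest fold change of the 9 in tumor against LLC blood. It was at 9.15, 8.23 and 7.72 CPM in healthy blood and 8.61, 4.63 and 5.12 CPM in LLC blood, which overlapped (log2 fold change -0.51 ± 0.54 SE, adjusted p 0.530). In tumor it was at 308, 96.9 and 136 CPM. All 3 tumor libraries lay above all 6 blood libraries, and LLC tumor 1 stood highest. The rise from LLC blood was 36.6-fold (5.19 ± 0.54 SE, adjusted p 3.23e-05), and without LLC tumor 1 the log2 fold change was 4.43.

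Cxcr4 (ENSMUSG00000045382, chr1:128588199-128592299), the Cxcl12 receptor that retains cells in marrow and tissue, was at 221, 110 and 102 CPM in healthy blood, 81.4, 88.3 and 127 CPM in LLC blood and 454, 195 and 207 CPM in tumor. Healthy blood 1 stood above the other blood libraries, above 2 of the 3 tumor libraries as well, and LLC tumor 1 above every other library. In LLC blood against healthy blood the log2 fold change of -0.56 ± 0.44 SE did not pass (adjusted p 0.394). Cxcr4 rose 3.46-fold from LLC blood to tumor (1.79 ± 0.45 SE, adjusted p 0.00691). Without LLC tumor 1 that log2 fold change was 1.14 and was still called (adjusted p 0.0102). Against healthy blood it was 1.23 ± 0.44 SE (adjusted p 0.0342), with overlapping groups, and that call was lost without healthy blood 2 or 3 (1.02 each), LLC blood 2 (1.19) or LLC tumor 1 (0.53, adjusted p 0.158) and with only the 2 groups compared (1.20).

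Fpr1 (ENSMUSG00000045551, chr17:17876471-17883939), the high-affinity formyl peptide receptor, was at 3.43, 4.61 and 2.82 CPM in healthy blood and 1.53, 3.67 and 2.41 CPM in LLC blood, which overlapped (-0.52 ± 0.32 SE, adjusted p 0.273). It was at 19.1, 16.2 and 15.3 CPM in tumor, above all blood libraries. The rise was 7.63-fold from LLC blood (2.93 ± 0.32 SE, adjusted p 4.50e-05) and 5.31-fold from healthy blood (2.41 ± 0.31 SE, adjusted p 0.000111).

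Fpr2 (ENSMUSG00000052270, chr17:17887824-17893952), which also binds lipid and protein ligands such as annexin A1, was lowest in LLC blood. It was at 53.0, 59.9 and 51.9 CPM in healthy blood, 26.97, 24.8 and 23.4 CPM in LLC blood and 77.5, 39.98 and 48.6 CPM in tumor. All 3 LLC blood libraries lay below all other libraries, while healthy blood and tumor overlapped. Fpr2 fell 2.24-fold in LLC blood (-1.16 ± 0.28 SE, adjusted p 0.0152), a call lost without LLC blood 2 (adjusted p 0.0588) or 3 (adjusted p 0.0662) at nearly the same size. It rose 2.62-fold from LLC blood to tumor (1.39 ± 0.28 SE, adjusted p 0.00186). Without LLC tumor 1 that log2 fold change was 0.95. Between tumor and healthy blood the log2 fold change was 0.23 ± 0.27 SE (adjusted p 0.475), and it turned to -0.26 without LLC tumor 1.

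Fpr1 and Fpr2 are neighbours on chromosome 17 whose counts were not whole in 7 libraries each, while their sum was whole in all 9. Fpr1 held 5.15% to 7.14% of the counts of the pair in healthy blood, 5.37% to 12.9% in LLC blood and 19.8% to 28.9% in tumor. Summed, the pair fell in LLC blood (-1.11 ± 0.25 SE, adjusted p 0.0112) and rose from LLC blood to tumor (1.63 ± 0.25 SE, adjusted p 0.000364), and against healthy blood it did not pass in tumor (0.51 ± 0.24 SE, adjusted p 0.0844). The sum was chosen after the data had been seen.

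**Figure D2:**
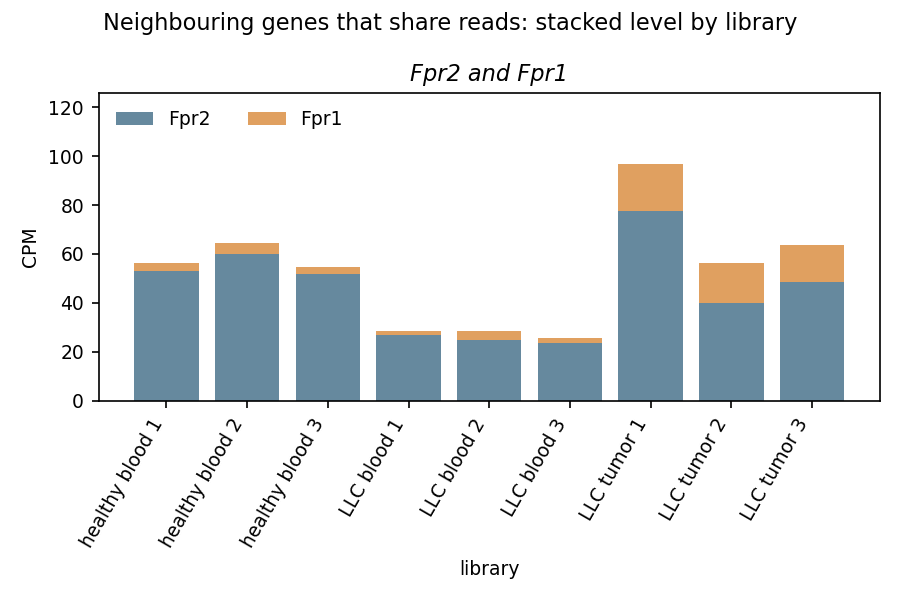
Stacked CPM of Fpr2 and its neighbour Fpr1 in each of the 9 libraries. Fpr1 takes a larger part of the pair in the 3 tumor libraries (19.8% to 28.9%) than in the 6 blood libraries, and the 3 LLC blood bars are the shortest.

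S1pr1 (ENSMUSG00000045092, chr3:115710433-115715055), the receptor through which lymphocytes follow sphingosine-1-phosphate into blood, was at 2.57, 10.9 and 9.99 CPM in healthy blood, 0.669, 0.484 and 1.01 CPM in LLC blood (7, 7 and 21 counts) and 9.48, 8.86 and 4.84 CPM in tumor. The LLC blood libraries lay below all others, and healthy blood 1 was the lowest of its group. S1pr1 fell 10.6-fold in LLC blood (-3.41 ± 0.60 SE, adjusted p 0.00395) and was 12.0-fold higher in tumor than in LLC blood (3.58 ± 0.61 SE, adjusted p 0.000675). Both calls were kept in all 21 alternatives. Tumor and healthy blood overlapped (0.17 ± 0.50 SE, adjusted p 0.779), and the sign turned without healthy blood 1 (-0.25) or LLC tumor 1 (-0.15) and with library totals only (-0.02). The summed T and NK cell markers, given above, were lower in LLC than in healthy blood, as S1pr1 was. In tumor the NK cell sum was lower again, and so were the 7 T cell markers other than Cd28, at 1.296 to 2.48 CPM against 3.53 to 5.26 CPM in LLC blood, while the S1pr1 values overlapped those of healthy blood. Cd28 alone was at 5.44 to 10.6 CPM in tumor and carried the sum of the T cell list there. The endothelial gene Kdr was at 0.286 to 0.799, 0.765 to 1.21 and 5.94 to 10.7 CPM in healthy blood, LLC blood and tumor. In the same order, Pecam1 was at 11.6 to 17.2, 9.75 to 12.5 and 41.0 to 56.1 CPM. Cdh5 was at 0.368 to 1.00, 0.484 to 0.574 and 2.53 to 4.41 CPM. Each of these genes overlapped between the blood groups and was higher in tumor. The part of lymphocytes and endothelial cells in the levels of S1pr1 was not tested.

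Cxcr2 (ENSMUSG00000026180, chr1:74153994-74161246), the neutrophil receptor of Cxcl1 and Cxcl2, did not pass in any comparison. It was at 0.214, 11.5 and 0.429 CPM in healthy blood, 1.15, 9.13 and 4.20 CPM in LLC blood and 3.88, 8.78 and 6.91 CPM in tumor. Healthy blood 2 held 187 counts against 3 and 7 in the other libraries of its group, and 3 counts is the level treated as the detection floor. The log2 fold changes were 0.23 ± 1.13 SE in blood (adjusted p 0.907), 0.59 ± 1.13 SE from LLC blood to tumor (adjusted p 0.667) and 0.82 ± 1.13 SE for tumor against healthy blood (adjusted p 0.544). Without healthy blood 2 they were 3.76 in blood (adjusted p 0.0265) and 4.39 in tumor against healthy blood (adjusted p 0.00314), so 1 library decided both. Retnlg, a gene of mature neutrophils, was at 8.54 CPM in healthy blood 2 and at 0.0715 and 0.368 CPM in the other healthy blood libraries, and at 1.94 CPM in LLC blood 2 against 0 and 0.0966 CPM in LLC blood 1 and 3. In tumor it was at 0, 6.21 and 0.864 CPM. Retnlg was singled out after its values were seen, and other neutrophil genes ran differently: Ngp was at 3.38 CPM in healthy blood 2 and at 23.5 and 9.08 CPM in LLC blood 2 and 3, and Ltf at 1.35 CPM and at 22.9 and 9.37 CPM in the same libraries. The 12 neutrophil markers in the table summed to 1018 to 1128, 1036 to 1157 and 385 to 501 CPM in the 3 groups, a sum carried mostly by Csf3r, Cd177 and Mmp8. Their part in the Cxcr2 values was not tested.

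**Figure D3:**
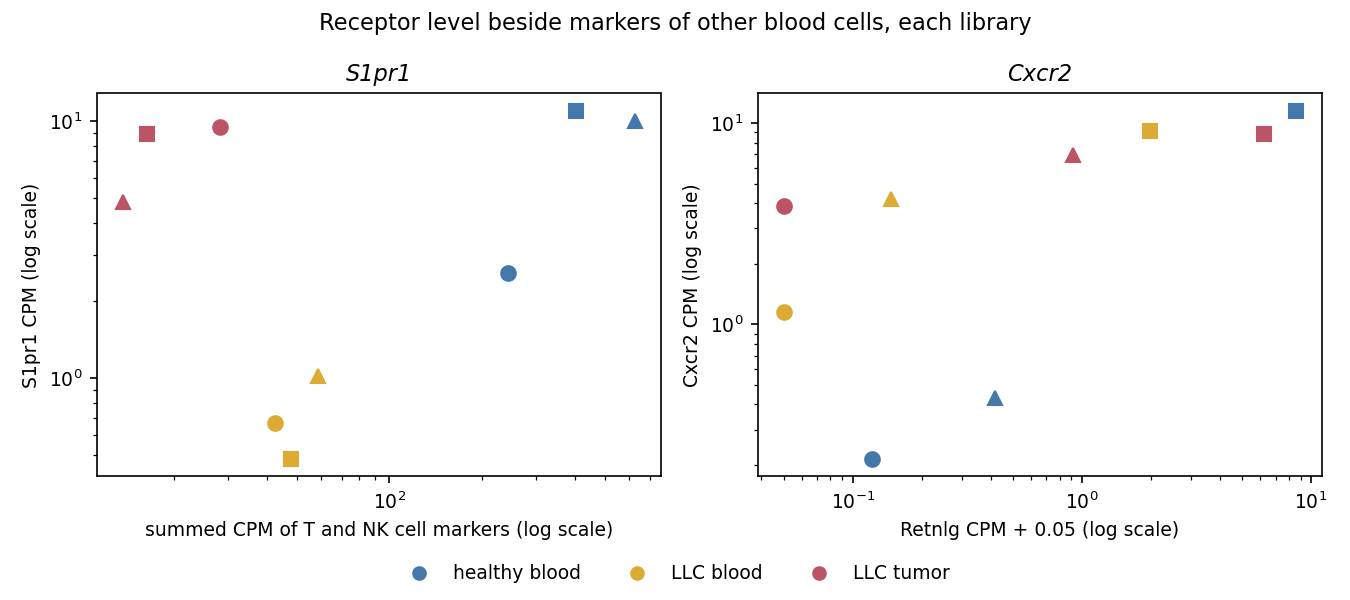
Left, S1pr1 against the summed T and NK cell markers, and right, Cxcr2 against the neutrophil gene Retnlg, chosen after its values were seen, in each library, all in CPM on log scales (0.05 added to Retnlg so that libraries at 0 can be drawn); circles, squares and triangles are libraries 1, 2 and 3. The 3 LLC blood libraries are lowest in S1pr1 and lie left of healthy blood, while the tumor libraries lie further left and have 4.84 to 9.48 CPM of S1pr1; healthy blood 2 is highest in both Cxcr2 and Retnlg.

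**Figure D4:**
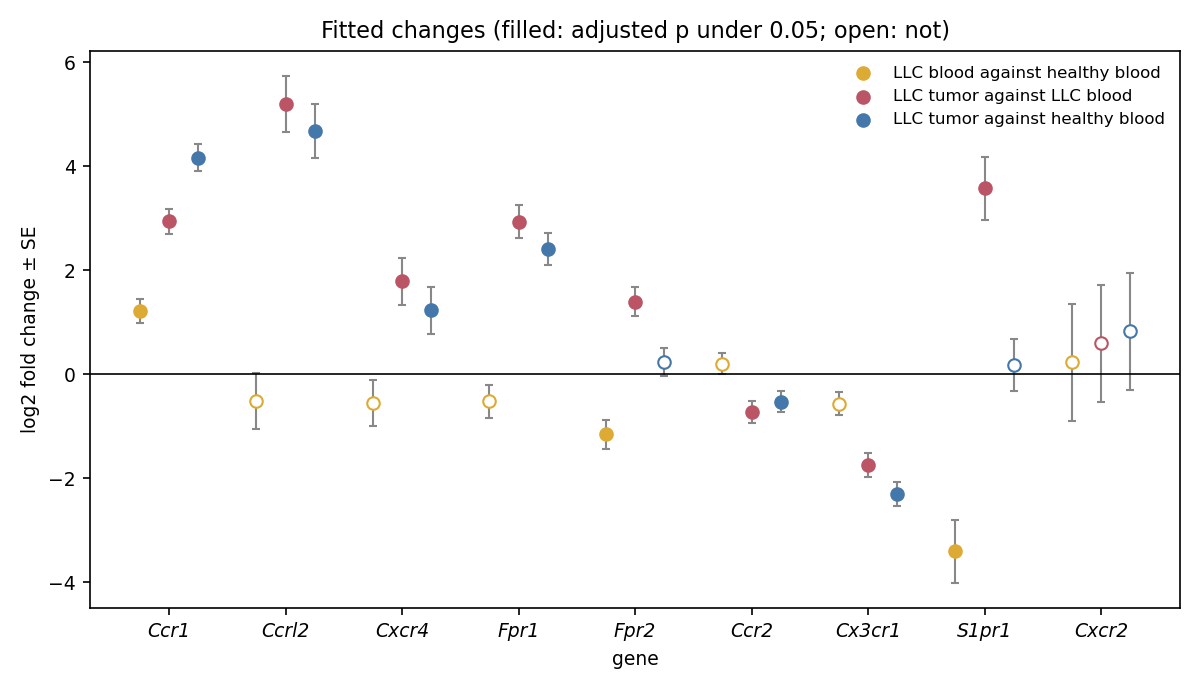
Fitted log2 fold changes with standard errors for the 9 genes in the 3 comparisons; filled points passed an adjusted p of 0.05 and open points did not. Ccr1 is above 0 throughout, Ccrl2, Cxcr4, Fpr1, Fpr2 and S1pr1 are above 0 in tumor against LLC blood, and Cxcr2 has the widest errors.

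The genes whose levels followed each receptor most closely over the 9 libraries were listed by Pearson's r of log2(CPM + 1), as a description across 3 groups of 3 that share library and depth, searched among the 7707 genes that reached a group mean of 20 CPM. Ccr1 ran with F7 (coagulation factor VII, r 0.995) and Upp1 (uridine phosphorylase, r 0.995), and Ccrl2 with the immediate early gene Egr2 (r 0.998) and the interleukin-1 receptor antagonist Il1rn (r 0.996). Il1rn shared the high LLC tumor 1 value, at 417 CPM against 176 and 230 CPM in the other tumor libraries. Cx3cr1 ran with Bet1l (r 0.998) and Nupr1 (r 0.996), Ccr2 with Lypla1 (r 0.975) and Rpe (r 0.969), and Cxcr4 with the survival gene Mcl1 (r 0.950) and Rilpl2 (r 0.945). Fpr1 ran with Rnf11 (r 0.991) and Pecam1 (r 0.987), itself one of the endothelial markers above, Fpr2 with Ptp4a1 (r 0.971) and Sec61g (r 0.971), and S1pr1 with Tceb1 (r 0.978) and Nipsnap3b (r 0.967). The gene most like Cxcr2 was the neutrophil and monocyte gene S100a9 (r 0.898), which was at 90.7 CPM in healthy blood 2 against 0.929 and 2.51 CPM in the others, followed by Ubxn4 (r 0.890). Among the receptors themselves, Ccrl2 and Fpr1 were closest (r 0.941) and Ccr1 and Cx3cr1 most opposed (r -0.972).

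Of 35 other chemoattractant receptor genes, 34 were in the table and 18 were tested. From LLC blood to tumor 10 rose and 3 fell, with a median log2 fold change of 0.79. The 13 called are 72.2% of the list, where 61.3% of all genes were called (29.6% higher, 31.7% lower). The complement receptor genes C3ar1 (4.45 ± 1.05 to 425 ± 109 CPM, 6.83 ± 0.32 SE on the log2 scale, adjusted p 3.68e-07) and C5ar1 (29.6 ± 4.24 to 304 ± 61.0 CPM, 3.59 ± 0.24 SE, adjusted p 2.38e-06) rose with the chemerin receptor gene Cmklr1 (48.5 ± 2.6 to 160 ± 16.1 CPM, 1.94 ± 0.15 SE, adjusted p 4.34e-06), means ± SD over 3 libraries. The 3 that fell were S1pr5 (-4.48 ± 0.31 SE), S1pr4 (-3.00 ± 0.14 SE) and Cxcr3 (-2.09 ± 0.60 SE). Of the other sphingosine-1-phosphate receptor genes, S1pr3 rose as S1pr1 did (4.00 ± 0.38 SE), while S1pr2 passed with a change of 0.26 ± 0.09 SE. Scaling by library totals moved the median of all genes from -0.03 to -0.23, a shift of similar size to that change. That S1pr2 call was lost without LLC blood 2 or 3 or LLC tumor 3. The 3 that fell, S1pr2 and S1pr3 were named after their values were seen.

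In LLC blood against healthy blood 1 of these 18 rose, the complement receptor gene C5ar2 (0.82 ± 0.20 SE, not called without healthy blood 2 or 3 or without LLC blood 2 or 3, at 0.68 to 0.83), and 3 fell, with a median of -0.11. The 4 called are 22.2% of the list, close to the 23.6% called over all genes. S1pr5, a receptor of NK cells and patrolling monocytes, fell from 84.3 ± 2.53 to 34.9 ± 13.3 CPM (-1.31 ± 0.22 SE, adjusted p 0.00343). Ccr7 (-3.89 ± 1.04 SE) and Cxcr6 (-3.00 ± 0.52 SE), receptors of lymphocytes and dendritic cells (Ccr7 is also in the dendritic cell marker list), fell as well. For Ccr7, healthy blood 2 was at 10.0 CPM and the other healthy blood libraries at 0.786 and 1.10 CPM, against 0.191 to 0.415 CPM in LLC blood. Its log2 fold change without healthy blood 2 was -1.88 (adjusted p 0.0761), and the call was also lost without any one of the LLC blood libraries. The lymphocyte markers above and the dendritic cell sum (76.2 to 106 CPM, from 150 to 158 CPM in the healthy group) were lower too, and their part was not tested. C5ar2, Ccr7 and Cxcr6 were named after their values were seen. Against healthy blood, 9 of the 18 rose in tumor and 4 fell, with a median of 0.50. The 13 called are 72.2% of the list, where 66.5% of all genes were called (33.5% higher, 33% lower).

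The ligand list held 23 genes for chemokines, other ligands of the 9 receptors and enzymes or transporters of sphingosine-1-phosphate, 22 of them tested. From LLC blood to tumor 17 rose and 1 fell, the Fpr2 ligand gene Anxa1 (-0.59 ± 0.11 SE). The 18 called are 81.8% of the list, where 61.3% of all genes were called (29.6% higher, 31.7% lower). The median log2 fold change of the list was 6.02. It was 4.34 when the 6 genes that did not exceed 3 counts in any library of one group were given their lower bound. The ligands of Cxcr2 were among the largest: Cxcl2 went from 2.01 ± 2.43 to 1728 ± 486 CPM (10.19 ± 0.78 SE, adjusted p 4.84e-06), Cxcl3 from 1.09 ± 1.22 to 722 ± 86.8 CPM (9.85 ± 0.56 SE, adjusted p 9.07e-07), both with counts that were not whole in any of the 9 libraries. Without LLC blood 1 these log2 fold changes were 11.53 and 11.07. Cxcl1, at or under 3 counts in every LLC blood library, was at least 387-fold higher in tumor. The Ccr2 ligand Ccl7 went from 0.494 ± 0.322 to 103 ± 20.8 CPM (7.94 ± 0.54 SE, adjusted p 2.35e-06). In LLC blood the list had a median of -1.03 (-0.79 with such genes at their bound), and 5 ligand genes fell (Ccl3, Ccl4, Ccl5, Ccl6 and Ccl12) and 1 rose (Anxa1, 0.54 ± 0.11 SE). These 6 are 27.3% of the list, where 23.6% of all genes were called. Ccl3, Ccl4 and Ccl12 were named after their values were seen. The calls of Ccl3, Ccl4, Ccl6 and Ccl12 were each lost in 3 or more of the fits that left 1 library out, while those of Ccl5 and Anxa1 were kept. Ccl5, a ligand of Ccr1 made by T and NK cells, went from 96.3 ± 31.1 to 8.08 ± 2.91 CPM (-3.57 ± 0.55 SE, adjusted p 0.00227). Against healthy blood 17 rose in tumor and 1 fell (Ccl5). These 18 are 81.8% of the list, where 66.5% of all genes were called (33.5% higher, 33% lower).

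Among 26 genes of receptor signalling and desensitisation, 6 rose and 16 fell from LLC blood to tumor, with a median of -0.62 against -0.03 over all genes. Rgs1, which switches off the G proteins of chemoattractant receptors, rose (1.51 ± 1.52 to 593 ± 258 CPM, 9.06 ± 0.64 SE, adjusted p 3.04e-06, and 9.99 without LLC blood 1). The receptor kinase genes Adrbk2 (367 ± 33.3 to 71.8 ± 11.1 CPM, -2.16 ± 0.12 SE, adjusted p 6.28e-07) and Grk6 (269 ± 12.6 to 82.5 ± 12.9 CPM, -1.51 ± 0.08 SE, adjusted p 6.46e-07) fell, as did Pik3r6, a regulatory subunit of the phosphoinositide kinase these receptors activate (-1.47 ± 0.08 SE, adjusted p 5.85e-07). The 22 called are 84.6% of the list, where 61.3% of all genes were called. In LLC blood 2 of the 26 rose (Pik3cg and Grk5) and 2 fell (Klf2 and Rgs18), 15.4% of the list where 23.6% of all genes were called. The calls of Grk5, Klf2 and Rgs18 were lost without any one of the 6 blood libraries, and that of Pik3cg without healthy blood 2. Klf2, a transcription factor known to drive S1pr1 in T cells, went from 420 ± 58.2 to 274 ± 21.9 CPM in LLC blood (-0.64 ± 0.18 SE, adjusted p 0.0339) and to 151 ± 51.9 CPM in tumor (-0.68 ± 0.19 SE, adjusted p 0.0104), where S1pr1 was higher. Cd69, whose product removes S1PR1 from the cell surface, was at 7.84, 8.85 and 12.9 CPM in LLC blood and 53.5, 14.4 and 19.8 CPM in tumor and rose (1.83 ± 0.51 SE, adjusted p 0.0109), by 0.90 on the log2 scale without LLC tumor 1. It was named, as Klf2 in tumor was, after its values were seen.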

How the data were processed

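Expression was measured by RNA-seq in 9 of the 31 samples, and the other 22 (chromatin libraries) were not analysed here. The authors deposited a table of estimated counts (expected counts, not normalized; 8.56% to 9.73% of values per library not whole), and a CPM table (10693 genes) that gave the Ensembl identifiers. The submitters' processing notes name Trim Galore, cutadapt 3.4, STAR 2.6.1d, Salmon 1.9.0, edgeR and mm10 (the assembly GRCm38), with no role or order. The blood columns are headed BM, read here as blood monocyte from the sample titles, which the values cannot tell from bone marrow. In every library 100% of the deposited CPM values were whole multiples of 1 read (tolerance 0.02 reads) and 100% equalled the rounded counts, and a fit of those reads, used as an alternative, called 2584 genes in blood, 6792 in tumor against LLC blood and 7236 in tumor against healthy blood.

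Counts were rounded and fitted for all 9 libraries with edgeR 4.0.16 (R 4.3.3; quasi-likelihood, group as the only term, TMM, filterByExpr, 12337 of 18544 genes with a count). Alternatives used DESeq2 1.42.0 and limma 3.58.1. Levels are CPM over all entries, without TMM; depth sets a floor of 3 counts, 0.145 to 0.287 CPM, which covers counting error only. The code was tested on simulated data. A fit with the replicate number as a block, each library left out in turn, other scalings, no filter and stricter thresholds were also tried. The receptors and gene lists were chosen with earlier results of these data known. Named genes of a list were at most 4 per comparison, those with the largest absolute log2 fold change among called genes averaging 20 CPM or more in the libraries compared; the 2 most alike genes per receptor were named by Pearson's r. Receptor protein sequences were not used here, and 1 gene of the lists is counted but not reported singly. Gene coordinates are RefSeq's (GRCm38.p6).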

Additional observations from a re-analysis of the deposited data

How the results depend on the processing

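No batch is named in the labels, so an unlabelled one matching the groups and the groups cannot be told apart, and 3 libraries per group limit the precision. Of 573 values of receptor genes under an alternative, 529 kept their direction and their side of the threshold. Of the rest, 24 kept the direction and lost the call, 11 kept it and gained the call, and 9 turned. The stricter thresholds were set on the main fit, so values under them could not turn and genes not called could not change. Values for the sum of Fpr1 and Fpr2 are counted as well. Where no reason is given, the cause was not tested. Of the 27 pairs of gene and comparison, 12 called ones kept both under every alternative. The number of receptor genes called was 3 in blood (2 to 4 over 21 alternatives), 8 in tumor against LLC blood (7 or 8) and 6 in tumor against healthy blood (4 to 6). With one library left out these were 2 to 4, 8 in each fit, and 4 to 6. The labels do not say whether replicate numbers pair the libraries. Between same-numbered libraries, deviations from the group means correlated at -0.10 to 0.15 for LLC blood and tumor. For the blood groups this was 0.05 to 0.30, and for healthy blood and tumor 0.02 to 0.08. Between differently numbered libraries the values were -0.08 to 0.11, -0.31 to 0.19 and -0.07 to 0.04 in the same order. With 3 libraries per group these correlations cannot decide whether animals or batches were shared. With the replicate number as a block in the 2 groups compared, the counts were 4, 8 and 5, the extra call in blood being Cx3cr1 (-0.59) and the lost one Ccr2 in tumor against healthy blood (-0.55). Values that turned were not called in the alternative: Cxcr2 in blood without healthy blood 1 (-0.32), healthy blood 3 (-0.30) or LLC blood 2 (-0.56), with a range of -0.56 to 3.76 over libraries left out. In tumor against healthy blood, Fpr2 gave -0.16 with limma-voom and -0.26 without LLC tumor 1 (range to 0.47), and S1pr1 gave -0.023 with library totals only, -0.34 with limma-voom, -0.25 without healthy blood 1 and -0.15 without LLC tumor 1 (range to 0.46). Library totals only moved the median of all genes to -0.23 in tumor against LLC blood and to -0.17 against healthy blood, and upper-quartile factors to -0.10 in the latter. Limma-voom with sample quality weights called 8 other receptor genes in blood in place of 4, 11 ligand genes in place of 6 and 12 signalling genes in place of 4; upper-quartile factors called 7 and library totals only 8 of the last. Of all genes in blood, 2917 were called, against 5884 with limma-voom, 4889 with the 2 groups alone, 4820 with the replicate block on those, 5064 without LLC tumor 1, and 1494 to 1873 when any one of healthy blood 2, healthy blood 3, LLC blood 2 and LLC blood 3 was left out. Depth limits S1pr1 in LLC blood (7 to 21 counts) and Cxcr2 in healthy blood (3 to 187 counts).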
